A study of Homo sapiens with 18 samples.

Results

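The regions described here are those to which FOXA1 was mapped in MDA-MB-453, SKBR3 and T47D cells alike and at which none of 5 TLE3 peak lists from these lines had a peak. They are called TLE3-free in that sense only, since a further TLE3 library, SKBR3 replicate 2, had a peak at 3981 of them (28.4%). They were chosen by the peak lists themselves. A FOXA1 site of a line is a stretch covered by overlapping FOXA1 peaks with at least 1 from each replicate, sites were merged over the 3 lines, and a region was kept where it held a site of all 3 lines and no peak of any of 5 TLE3 lists (both replicates of MDA-MB-453 and of T47D, and replicate 1 of SKBR3). The rule gave 14029 regions of 43624 constitutive FOXA1 regions (32.2%), from 196570 FOXA1 regions found in any line. The other 29595 constitutive regions had TLE3, in 1 or 2 lines at 20417 and in all 3 lines at 9178. The remaining 152946 FOXA1 regions were not found in all 3 lines.

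Chromatin immunoprecipitation with sequencing (ChIP-seq) was run in 3 established luminal breast cancer lines with no treatment named in the labels, to map TLE3 genome-wide and to see how far it shares sites with FOXA1. MDA-MB-453 lacks estrogen receptor, SKBR3 carries amplified ERBB2, and T47D has estrogen receptor. Each factor has 2 replicates in each line, termed biological by the labels, and each of these 12 libraries has its own peak list. The libraries of the 6 input samples were not used here. The labels name a further crosslinker, given before formaldehyde, for the TLE3 libraries. The lists differ in length, from 107598 to 188029 peaks for FOXA1 and from 21149 to 94363 for TLE3, and carry no read counts, so the depth is unknown. The library labelled SKBR3 TLE3 replicate 2 stood apart, with 94363 peaks against 21149 in replicate 1, and the rule does not use it. The lists hold no expression values, so luminal and basal marker genes could be examined only for the FOXA1 regions near them.

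FOXA1 is a forkhead pioneer factor that can bind its motif in closed chromatin and makes sites accessible to the estrogen receptor in luminal breast cells. TLE3 is a corepressor of the Groucho family that has no DNA-binding domain of its own and is brought to DNA by partner factors, among them forkhead, TCF, RUNX and HES proteins. It is known for recruiting histone deacetylases and dampening transcription at the sites of its partners.

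The best ranked TLE3-free regions at promoters are shown by sequence, since the letters under the FOXA1 peak could be read only where a RefSeq promoter window (GRCh38.p14) was at hand. These are the 250 bases before the annotated start of the 6 protein-coding genes whose upstream window overlapped the highest ranked members, 5′ to 3′ on the gene's strand. Capitals mark GTAAACA, the forkhead heptamer TGTTTAC read on the opposite strand.
TPRG1L chr1:3624765-3625014 (+ strand): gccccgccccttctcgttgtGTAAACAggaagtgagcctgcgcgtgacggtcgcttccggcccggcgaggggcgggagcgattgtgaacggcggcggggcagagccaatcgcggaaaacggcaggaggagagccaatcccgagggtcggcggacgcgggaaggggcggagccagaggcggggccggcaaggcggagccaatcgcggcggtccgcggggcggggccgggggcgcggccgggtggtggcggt
EXOSC2 chr9:130693510-130693759 (+ strand): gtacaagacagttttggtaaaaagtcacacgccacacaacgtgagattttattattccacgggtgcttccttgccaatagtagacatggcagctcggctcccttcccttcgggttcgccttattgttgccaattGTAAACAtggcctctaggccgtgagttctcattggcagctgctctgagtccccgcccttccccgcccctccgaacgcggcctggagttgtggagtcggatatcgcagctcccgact
SMC1B chr22:45413600-45413849 (- strand): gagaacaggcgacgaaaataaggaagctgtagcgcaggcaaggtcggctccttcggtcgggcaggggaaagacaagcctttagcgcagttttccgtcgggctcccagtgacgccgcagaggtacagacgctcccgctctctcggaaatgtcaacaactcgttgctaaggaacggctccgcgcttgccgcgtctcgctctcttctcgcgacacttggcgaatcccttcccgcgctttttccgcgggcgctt
RNF26 chr11:119334277-119334526 (+ strand): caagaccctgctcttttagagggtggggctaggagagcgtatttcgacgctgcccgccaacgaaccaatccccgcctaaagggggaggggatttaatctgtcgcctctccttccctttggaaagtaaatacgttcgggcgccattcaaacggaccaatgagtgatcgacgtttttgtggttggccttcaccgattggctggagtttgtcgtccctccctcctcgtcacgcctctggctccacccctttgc
XAB2 chr19:7629546-7629795 (- strand): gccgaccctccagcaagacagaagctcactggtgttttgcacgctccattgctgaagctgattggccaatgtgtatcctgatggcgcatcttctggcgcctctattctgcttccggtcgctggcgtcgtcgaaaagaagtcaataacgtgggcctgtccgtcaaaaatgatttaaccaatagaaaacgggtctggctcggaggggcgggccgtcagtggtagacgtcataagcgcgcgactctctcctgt
ABHD4 chr14:22598050-22598299 (+ strand): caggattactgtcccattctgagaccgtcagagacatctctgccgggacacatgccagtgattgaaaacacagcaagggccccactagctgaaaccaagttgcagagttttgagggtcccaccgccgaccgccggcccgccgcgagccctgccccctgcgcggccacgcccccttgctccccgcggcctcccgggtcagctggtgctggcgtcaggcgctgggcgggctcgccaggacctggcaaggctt
The TPRG1L promoter, of a presynaptic vesicle protein, held the heptamer 230 bp before the start, and that of EXOSC2, a subunit of the RNA exosome, held it 116 bp before the start. The windows of SMC1B (a meiotic cohesin subunit), RNF26 (a ubiquitin ligase of the endoplasmic reticulum), XAB2 (a splicing and DNA repair factor) and ABHD4 (a lipid hydrolase) held neither TGTTTAC nor TGTTTGC in the printed 250 bases. The member at SMC1B also overlapped the window of RIBC2, and the member at XAB2 those of PET100 and STXBP2.

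FOXA1 peaks ranked lower at TLE3-free regions than at constitutive regions with TLE3. Each list carries the authors' own score per peak, a quantity that the sources used here do not name, so a peak was placed by its percentile within its list (100 is the highest score). The median percentile at TLE3-free regions was 68.2 and 61.0 in the MDA-MB-453 replicates, 56.2 and 57.2 in the SKBR3 replicates, and 66.9 and 70.0 in the T47D replicates. At regions with TLE3 it was 88.1 and 85.2 in MDA-MB-453, 78.3 and 80.3 in SKBR3, and 85.7 and 84.8 in T47D. The TLE3-free median was the lower one in 6 of 6 lists, with a mean difference of -20.5 ± 3.42 percentile points (SD, n = 6 libraries), while the interquartile ranges of the 2 kinds of region overlapped in every list. These scores belong to the lists that chose the regions and are therefore given with no test.

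**Figure D1:**
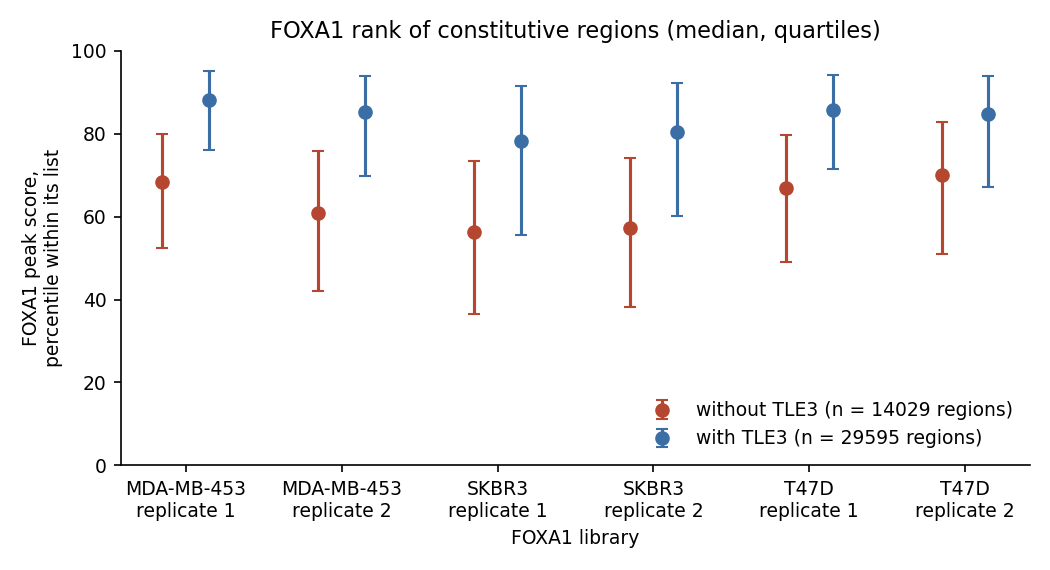
Percentile of the FOXA1 peak score within each of the 6 FOXA1 lists at constitutive regions without TLE3 (red, 14029 regions) and with TLE3 (blue, 29595 regions). Points are medians and bars are quartiles over regions; the red medians lie between 56.2 and 70.0 and the blue ones between 78.3 and 88.1.

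Averaged over the 6 lists, a TLE3-free region had a median percentile of 60.1 (quartiles 48.3 and 71.4), against 74.2 at regions with TLE3 in 1 or 2 lines and 91.0 at regions with TLE3 in 3 lines. At FOXA1 regions not shared by all lines the median was 43.5, averaged over only those lists with a peak there. By these unlike averages TLE3-free regions ranked between the line-restricted FOXA1 regions and the constitutive ones with TLE3. By the number of the 5 TLE3 lists that overlapped a region, from 0 to 5, the medians were 60.1, 68.0, 72.7, 78.0, 84.1 and 93.7. TLE3-free regions were also narrower, with a median merged width of 602 bp (quartiles 493 and 760) against 972 bp with TLE3 (quartiles 769 and 1275). A single FOXA1 peak per list made up between 97.4% and 98.3% of the TLE3-free regions, against 91.4% to 93.4% of regions with TLE3.

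FOXA1 rank at a TLE3-free region varied from line to line. The range between the highest and the lowest line had a median of 29.4 percentile points, close to the 28.5 points at regions with TLE3 in 1 or 2 lines. It was 8.61 points at regions with TLE3 in 3 lines and 21.2 points over all regions with TLE3. The highest of the 3 lines was T47D at 43.0% of TLE3-free regions, MDA-MB-453 at 34.1% and SKBR3 at 22.9%. With TLE3 it was T47D at 36.0%, MDA-MB-453 at 41.1% and SKBR3 at 22.9%. Percentiles from lists of different length are not on one scale, so which line came out highest is no sign of stronger binding there. Over the 14029 members, Spearman's rho between FOXA1 percentiles was 0.844 to 0.909 for replicates of a line and 0.246 to 0.415 for lists of different lines; the points of one line share its chromatin, and rho is given as a description.

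The share of constitutive regions without TLE3 was lower at each step up in FOXA1 rank. From the lowest to the highest decile of the mean percentile it was 68.7%, 57.6%, 49.6%, 42.4%, 33.4%, 27.4%, 20.4%, 12.9%, 7.13% and 2.09%, the last being 91 of 4363 regions. In the narrowest of 3 equal width classes (292 to 701 bp) the TLE3-free share was 73.6%, 54.9% and 39.0% over 3 equal classes of rank from low to high, and in the widest (1018 to 6476 bp) it was 23.3%, 11.2% and 2.41%. Rank and width each moved with the share within classes of the other. The ranks come from the peaks that defined the regions, so these shares are a description and depend on the length of the TLE3 lists.

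**Figure D2:**
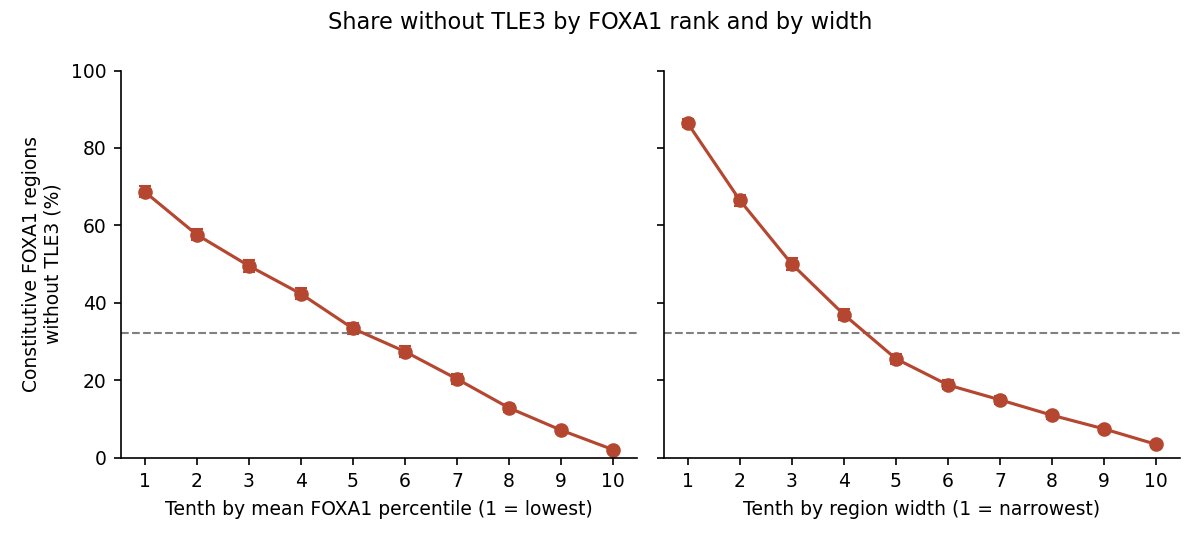
Percent of constitutive FOXA1 regions without TLE3 in each decile of mean FOXA1 percentile (left) and of merged region width (right), decile 1 being the lowest or narrowest. Bars are 95% Wilson intervals over regions and the dashed line is the share over all constitutive regions, 32.2%; the points run down to 2.09% on the left and 3.47% on the right.

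A small set of TLE3-free regions had FOXA1 peaks among the strongest. Of the 4118 constitutive regions above the 90th percentile in all 6 FOXA1 lists, 99 were TLE3-free, and of the top 437 regions by mean percentile 4 were. The first (chromosome 1, 3624018 to 3625287) had its centre 133 bp from an end of MEGF6, which encodes a protein with EGF-like repeats, and overlapped the TPRG1L promoter shown above. Its FOXA1 percentile was 99.8 and 99.5 in MDA-MB-453, 99.3 and 98.9 in SKBR3, and 99.2 and 99.7 in T47D, and its nearest TLE3 peak of the 5 lists was 4.86 kb away. The second lay in C2orf76, 14554 bp from DBI, the gene of the acyl-CoA binding protein (chromosome 2, 119351970 to 119352876), at percentiles of 99.3 and 98.96 in MDA-MB-453, 99.3 and 99.4 in SKBR3, and 99.6 and 99.6 in T47D. Both regions were thus near the top of every list, with no line set apart.

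The next ones were near CRYZ, a quinone reductase (chromosome 1, 74689516 to 74691079), and CYP7A1, the rate-limiting enzyme of bile acid synthesis in liver (chromosome 8, 58512943 to 58514175), at mean percentiles of 99.1 each. The other 6 of the 10 highest, at 98.1 to 98.6, were nearest to GGCT of the glutathione cycle, SH3PXD2A (an invadopodium scaffold), EXOSC2, ACAD8 of valine breakdown, STARD3NL of late endosomes and TENM2, a teneurin adhesion receptor. The library that the rule does not use, SKBR3 TLE3 replicate 2, had a peak at 8 of these 10 regions, the exceptions being those nearest to DBI and EXOSC2. At the other end, the 5 lowest members had mean percentiles of 11.02 to 13.2 and were nearest to AGR3, CLEC4D, PPEF1, STPG2 and GADL1.

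Just outside the rule lay regions whose only TLE3 peak was among the weakest of its list. The 5 closest were nearest to CMSS1, ACO1, SLC5A3, EIF3A and BLTP1, with TLE3 scores of 2.04 to 2.16, where the lowest scores of the 5 TLE3 lists were 2.0002 to 2.04. Their mean FOXA1 percentiles were 50.4, 53.9, 70.0, 57.1 and 73.7. All of these fall within the range of the members. Of the regions with a peak in exactly 1 TLE3 list, 3895 had it in T47D replicate 2, 1669 in MDA-MB-453 replicate 1, 740 in SKBR3 replicate 1, 92 in T47D replicate 1 and 53 in MDA-MB-453 replicate 2.

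Regions without TLE3 in 4 libraries mostly lacked it in the library that had not chosen them. Each of the 5 TLE3 lists was left out in turn, the regions were chosen by the other 4, and the left-out list was read at them. MDA-MB-453 replicate 1 overlapped 10.6% of the regions that were TLE3-free in the other lists and 67.8% of those that were not. MDA-MB-453 replicate 2 overlapped 0.376% of the TLE3-free regions and 44.3% of the others. SKBR3 replicate 1 overlapped 5.01% of the TLE3-free and 39.7% of the other regions. T47D replicate 1 overlapped 0.652% of the TLE3-free and 55.9% of the others, and replicate 2 overlapped 21.7% of the TLE3-free and 82.8% of the others. In each library the TLE3-free share was the lower one, and it was highest in the longest list of the rule. The means were 7.68% ± 8.89 for TLE3-free regions and 58.1% ± 17.6 for the rest (SD, n = 5 libraries). The difference of -50.4 ± 10.9 points was negative in 5 of 5 libraries and gave p = 0.063 in an exact two-sided sign-flip permutation test, the smallest p that 5 libraries allow. Over all constitutive regions the 5 lists overlapped from 28.0% (SKBR3 replicate 1) to 57.7% (T47D replicate 2). Each MDA-MB-453 and T47D library was read with the other replicate of its line still in the rule, so libraries of a line are not independent here. For the low values of replicate 2 in MDA-MB-453 and replicate 1 in T47D, that other replicate was the longer list. SKBR3 replicate 1, the only list of its line in the rule, had the smallest difference, -34.7 points. With all 5 differences negative, p takes the smallest value that 5 libraries allow, whatever their size. It reflects only the shared sign of these libraries.

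**Figure D3:**
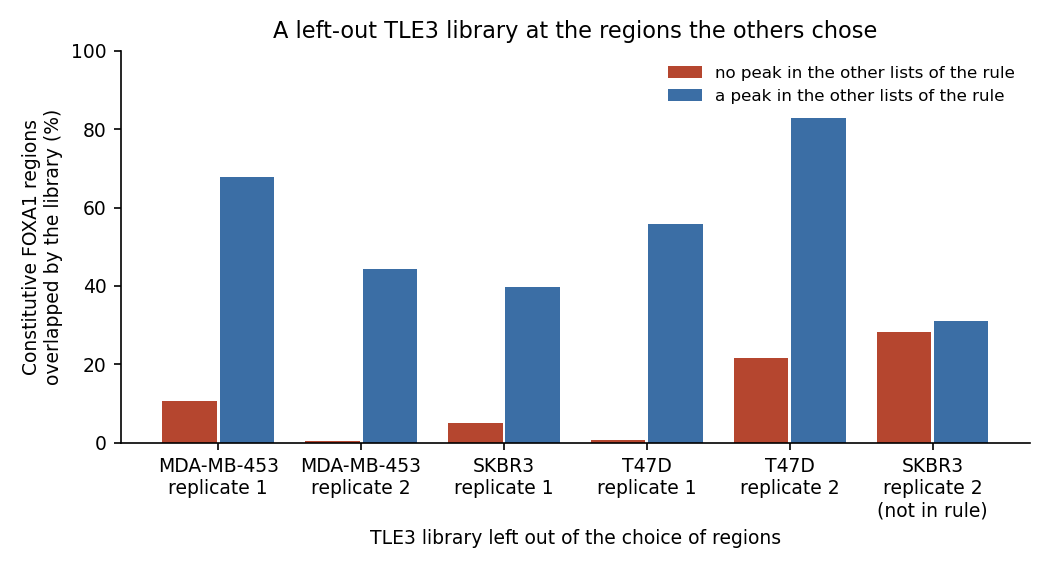
Percent of constitutive FOXA1 regions overlapped by a TLE3 library that took no part in choosing them, at regions without (red) and with (blue) a peak in the other TLE3 lists of the rule. The 5 libraries of the rule lie at 0.376% to 21.7% in red and 39.7% to 82.8% in blue; the pair on the right is the library outside the rule, at 28.4% and 31.1%.

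The lower FOXA1 rank was also seen in FOXA1 libraries that had no part in the choice. With each FOXA1 list left out and its line's site taken from the other replicate, the left-out list had a peak at 84.2% to 96.8% of TLE3-free regions and 93.1% to 99.4% of regions with TLE3. For the rank, a region with no peak in the left-out list was placed below every peak of that list. Rank and presence of a peak are therefore not separate measures here. The median percentile of the left-out list at the TLE3-free regions was 67.5 and 56.5 in MDA-MB-453, 49.1 and 52.4 in SKBR3, and 64.5 and 67.0 in T47D. At regions with TLE3 it was 88.0 and 84.5 in MDA-MB-453, 75.6 and 79.2 in SKBR3, and 85.4 and 83.4 in T47D. The TLE3-free values lay below all of the values with TLE3. The difference was -23.2 ± 4.61 points for rank and -6.44 ± 3.05 points for the presence of a peak (SD, n = 6 libraries), each negative in 6 of 6 and at p = 0.03125 by the exact two-sided sign-flip permutation test, the smallest p that 6 libraries allow. The call does not hold without any 1 of the 6 libraries, where 5 allow no p under 0.063, nor with a replicate block (p = 0.5 in the exact permutation test, the smallest for 2 numbers), and the 6 libraries come from 3 lines and are not independent. This comparison was added after the data had been seen, and the other replicate of the line, which correlates with the left-out one, stayed in the choice.

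TLE3-free regions were mostly far from transcription starts. Without chromosome 8, for which no start positions were used, 762 of 13285 (5.74%) had their centre within 1 kb of an annotated start, against 2844 of 28130 with TLE3 (10.1%) and a background of 8.71% over all constitutive regions. The share was 12.1% with TLE3 in 1 or 2 lines and 5.78% with TLE3 in 3 lines, so with all ranks pooled only the former differed from TLE3-free regions. Within deciles of FOXA1 rank this did not hold: with TLE3 in 3 lines the share was 20.8% (16 of 77) in the lowest decile and 5.26% in the highest. In the lowest decile of FOXA1 rank 5.67% of TLE3-free regions and 25.4% of regions with TLE3 were near a start, and in the highest decile 9.09% of TLE3-free regions and 6.94% of regions with TLE3. The TLE3-free share was 21.1% within 1 kb of a start and between 32.2% and 36.2% in each of the 6 classes of greater distance. The value was the lower one for TLE3-free regions on 21 of 22 chromosomes.

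This difference rested on 1 library. T47D TLE3 replicate 2 overlapped 75.2% of the constitutive regions within 1 kb of a start, against 33.7% and 16.5% for the MDA-MB-453 libraries, 18.1% for SKBR3 replicate 1 and 43.5% for T47D replicate 1. Without it in the rule, 9.59% of TLE3-free regions and 8.09% of regions with TLE3 were near a start, which turns the direction. With TLE3 lists of equal length, 21149 peaks each, it was 9.92% of TLE3-free regions and 7.51% with TLE3, and with the upper 50% of every list 8.87% TLE3-free and 7.80% with TLE3. No direction for closeness to starts is therefore drawn. The centre lay inside a protein-coding gene at 51.6% of TLE3-free regions and 50.1% of regions with TLE3, and the median distance to a start was 31.6 kb for TLE3-free regions and 28.3 kb with TLE3.

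**Figure D4:**
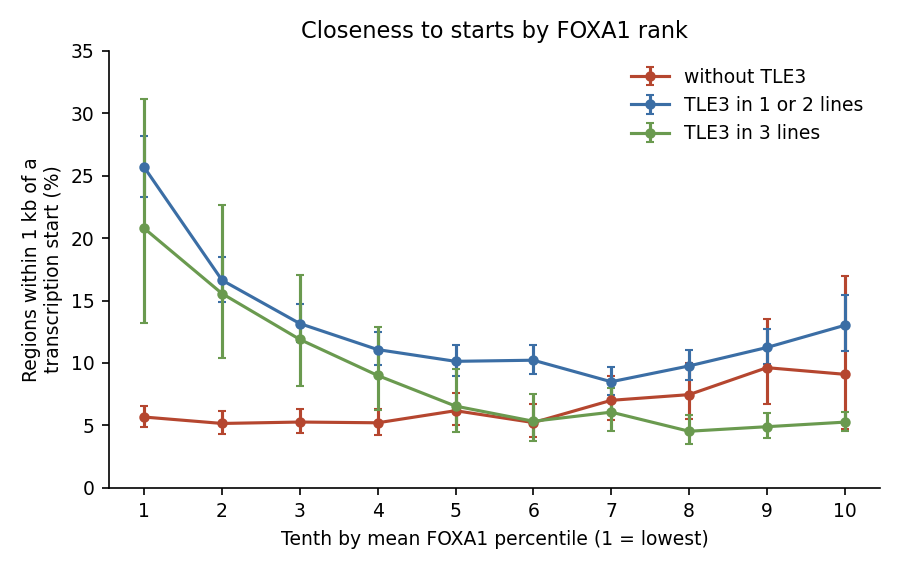
Percent of constitutive FOXA1 regions within 1 kb of a transcription start, by decile of mean FOXA1 percentile (1 is lowest), for regions without TLE3 (red), with TLE3 in 1 or 2 lines (blue) and with TLE3 in 3 lines (green), chromosome 8 left out. Bars are 95% Wilson intervals over regions; at decile 1 the red point is at 5.67% and the blue one at 25.7%.

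In promoters overlapped by TLE3-free regions, forkhead heptamers were found more often than over all promoters. A window here is the RefSeq promoter of 250 bases before and 50 after the start, searched on both strands for TGTTTAC and TGTTTGC. Of 636 windows overlapped by TLE3-free regions and by no other constitutive region, 106 held one (16.7%, 95% Wilson interval 14.0% to 19.8%). The share was 13.2% of 3629 windows at regions with TLE3 (12.1% to 14.3%), 7.02% at FOXA1 regions not shared by all lines, 6.03% at windows with no FOXA1 region and 7.16% of all 34961 windows. Windows of neighbouring starts share bases, and these intervals cover counting error only. The order of the first pair depends on T47D TLE3 replicate 2: without it in the rule, 12.5% of TLE3-free windows and 14.6% of windows with TLE3 held a heptamer, both above the share of all windows.

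The TLE3-free windows had a median GC content of 57.3% against 62.3% with TLE3, and 18 against 23 CG dinucleotides per window. Without T47D TLE3 replicate 2 in the rule these differences were smaller, with a GC content of 60.3% in TLE3-free windows against 62.7% with TLE3 and 22 against 23 CG dinucleotides. CCAAT, the box bound by NF-Y, was in 45.6% of TLE3-free windows against 38.6% with TLE3, and CACGTG, an E-box, in 5.97% of TLE3-free windows against 10.4% with TLE3. Without T47D TLE3 replicate 2, CCAAT was in 42.3% of TLE3-free windows against 37.8% with TLE3 and CACGTG in 8.16% against 10.9%, so both orders were as before. GGGCGG, the core of the GC box, was in 52.4% of TLE3-free windows against 61.9% with TLE3, an order that turned without that library, to 61.3% against 59.9%. The shares were not adjusted for base composition.

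Most TLE3-free regions had a TLE3 peak within 50 kb. This distance was not taken for other places in the genome, so it shows nothing particular to TLE3-free regions. The nearest TLE3 peak of the 5 lists lay at a median of 7.93 kb (quartiles 2.54 and 20.2 kb) from a TLE3-free region, within 1 kb of 11.7%, within 10 kb of 55.9% and within 50 kb of 93.6%. The next constitutive FOXA1 region was 13.5 kb away at the median, against 10.2 kb for a region with TLE3. That neighbour was itself TLE3-free for 32.5% of TLE3-free regions and for 30.4% of regions with TLE3, close to the 32.2% over all constitutive regions. Along the chromosomes, 6232 TLE3-free regions had no TLE3-free region next to them in the order of constitutive regions, and the others formed runs of 2 to 9. The longest run of consecutive TLE3-free regions held 9, over 562.65 kb of chromosome 14 (51616577 to 52179226) at FRMD6, GNG2, RTRAF and NID2. Among the 5 runs of 8 was one at NRIP1 on chromosome 21 (14947497 to 15063302), which encodes a corepressor of nuclear receptors and is an estrogen-induced gene. Another was at GSK3B on chromosome 3 (119891738 to 120103088), a kinase that marks beta-catenin for breakdown. The others were at EIF3H and UTP23, at IFT43, GPATCH2L and ESRRB, and at LRRN1, SUMF1 and SETMAR. Run lengths were not set against those of a random order, so no clustering is drawn from them.

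Of 19974 protein-coding genes, 10686 (53.5%) had a TLE3-free region inside them or within 50 kb. The genes with the most were long. RAD51B, a paralog of the recombinase of homologous repair, had 21 of its 74 constitutive regions TLE3-free, and TRPS1, a GATA-type repressor expressed in breast epithelium, had 18 of 33. ANK3, which encodes the membrane adaptor ankyrin-G, had 17 of 34, the potassium channel gene KCNMA1 15 of 47, AUTS2 15 of 48, the alpha-catenin gene CTNNA3 14 of 28, and the cAMP phosphodiesterase gene PDE4D 14 of 36. RABGAP1L had 13 of 21 and CSMD3 13 of 26. Against the 32.2% over all constitutive regions, the share was above it for TRPS1, ANK3, CTNNA3, PDE4D, RABGAP1L and CSMD3 and below it for RAD51B, KCNMA1 and AUTS2. Of 4505 genes with 5 or more constitutive regions, 7 had TLE3-free regions alone, 5 each, and 491 had none. The 7 were B3GNT3, a glycosyltransferase, and FCGBP, a mucin-like protein, on chromosome 19, DOCK2, a Rac activator of leukocytes, and INSYN2B on chromosome 5, ITSN2, an endocytic scaffold, TPR of the nuclear pore basket, and VPS8 of the endosomal CORVET complex. INSYN2B lies within DOCK2, so that regions can be counted for both. Each of the 7 had only the 5 regions needed to be counted. How many such genes a share of 32.2% would give was not computed, so nothing is drawn from the 7.

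Genes of the FOXA1 network had both kinds of region. Near FOXA1 itself 3 of 18 constitutive regions were TLE3-free, at mean percentiles of 71.3, 42.2 and 69.9, while the other 15 had TLE3. Near ESR1, the estrogen receptor gene, it was 4 of 13, at 69.3, 71.2, 70.2 and 77.2, and near GATA3, the luminal GATA factor, 3 of 7, at 61.5, 74.5 and 62.6. The GATA3 members lay together in the 3′ part of the gene and just past it (chromosome 10, 8072256 to 8080118), between regions with TLE3 in 1 and in 5 lists. Near TLE3 1 of 7 regions was TLE3-free, near KRT8, a luminal keratin gene, 2 of 10, and near KRT5, a basal keratin gene, no constitutive FOXA1 region was listed. Without T47D TLE3 replicate 2 in the rule, the TLE3-free regions numbered 8 near ESR1, 2 near TLE3 and 4 near KRT8, while GATA3 had 4 and FOXA1 3.

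Over 14 gene lists the TLE3-free share of nearby constitutive regions went from 15.6% to 36.5% with a median of 26.9%, against 32.3% near any protein-coding gene (10654 of 32963). It was lowest for the ERBB pathway, at 15 of 96 regions, where SPRED2, an inhibitor of RAS signalling, had 4 of 20 and ERBB4 4 of 22. Luminal identity genes followed at 33 of 164 (20.1%), where 16 of 22 genes had a TLE3-free region. AGR2, one of those with the most, had 3 of 8, while KRT7 had 1 of 13, SPDEF 0 of 10 and CLDN4 0 of 9, these last chosen after their values were seen. NOTCH and HES genes had 12 of 52 (23.1%), estrogen response genes 21 of 90 (23.3%, with 8 of 13 at NRIP1), basal identity genes 16 of 65 (24.6%, with 7 of 27 at TP63), EMT and TGF-beta genes 18 of 70 (25.7%), and androgen and apocrine genes 16 of 61 (26.2%, with 3 of 4 at FKBP5). The share was highest for WNT and TCF genes at 27 of 74 (36.5%), where ZNRF3, which removes WNT receptors, had 7 of 14 and TCF7L2, the nuclear effector of the pathway, had 5 of 11. Forkhead, GATA, GRHL and RUNX factors had 60 of 176 (34.1%), of which TRPS1 alone gave 18 of 33. Next came FOXP1 with 11 of 31 and GRHL2 with 7 of 20. Corepressor genes had 27 of 90 (30.0%), with RCOR1 at 5 of 9 and TLE1 at 4 of 14. Cell cycle genes (21 of 70) and housekeeping genes (15 of 50) each stood at 30.0%, ribosomal protein genes at 27.5% (19 of 69) and genes of other cell types at 30.2% (16 of 53).

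The 95% Wilson intervals of luminal identity (14.7% to 26.9%) and of the ERBB pathway (9.70% to 24.2%) lay below the 32.3% of all genes, and those of the other 12 lists held it. These intervals cover counting error only, and regions near one gene are not independent. FOXA1 rank was high for both lists, with a median percentile of constitutive regions of 78.6 near luminal identity genes and 79.2 near ERBB pathway genes, against 72.9 near any protein-coding gene. Estrogen response genes, at a share of 23.3%, had a median percentile of 77.9, and forkhead, GATA, GRHL and RUNX factors, at 34.1%, had 69.2. WNT and TCF genes, with the highest share, had 74.3, and housekeeping and cell cycle genes, at a share of 30.0% each, had 65.5 and 68.6. The part of rank in these shares was not tested. Without T47D TLE3 replicate 2 the share near any protein-coding gene was 42.0%, with 31.1% for luminal identity and 28.1% for the ERBB pathway still under it, and 41.9% for WNT and TCF genes no longer above it. Without that library ERBB4 had 7 TLE3-free regions, and without MDA-MB-453 TLE3 replicate 1 SPRED2 had 7. Without SKBR3 FOXA1 replicate 2 AGR2 had 5. The lists were chosen with earlier results of these data known.

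SKBR3 TLE3 replicate 2, the library outside the rule, had peaks at many regions called TLE3-free. It overlapped 3981 of the 14029 (28.4%), against 31.1% of regions with TLE3 and a background of 30.2% over all constitutive regions; with TLE3 in 3 lines it was 38.4%. At the TLE3-free regions the median percentile of its peaks within its own list was 78.9, against 40.9 at regions with TLE3. Farther than 1 kb from a start it overlapped 27.0% of TLE3-free regions, at a median percentile of 80.2, and 26.7% of regions with TLE3, at 39.4. Within 1 kb of a start it overlapped 53.7% of TLE3-free regions and 72.2% of regions with TLE3. Its overlap of TLE3-free regions went up with FOXA1 rank, from 22.98% in the lowest decile to 72.5% in the highest, where it overlapped 38.8% of regions with TLE3. Replicate 1 of the same line overlapped none of the TLE3-free regions, as the rule sets. What this library measured at those regions was not tested. With it added to the rule, 10048 TLE3-free regions were left. They then numbered 0 near KRT8 in place of 2, 1 near RCOR1 and 1 near B3GNT3 in place of 5 each, 2 near FCGBP in place of 5 and 9 near KCNMA1 in place of 15, with 3 near GATA3 as before and 3 near ESR1 in place of 4.

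**Figure D5:**
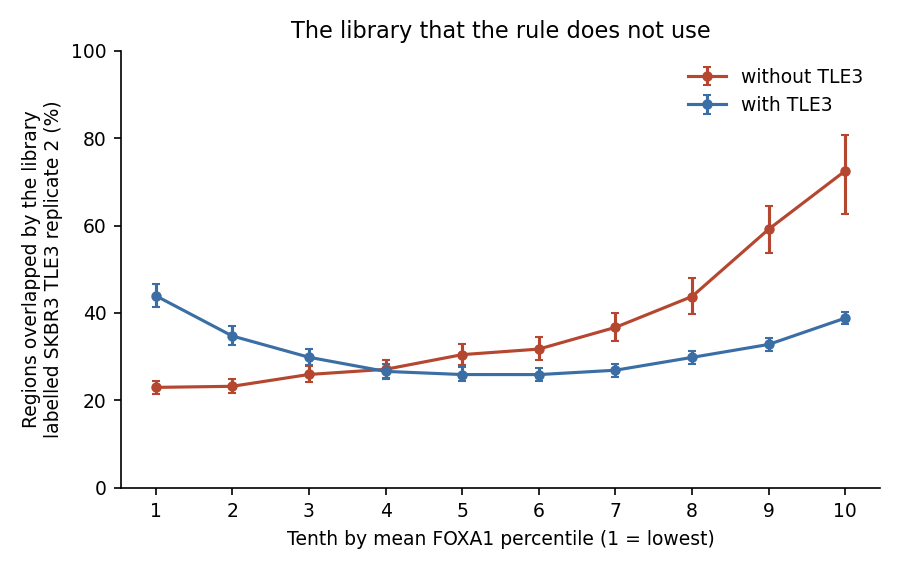
Percent of constitutive FOXA1 regions overlapped by the library labelled SKBR3 TLE3 replicate 2, by decile of mean FOXA1 percentile (1 is lowest), for regions without (red) and with (blue) TLE3 in the 5 lists of the rule. Bars are 95% Wilson intervals over regions; the red points run from 22.98% to 72.5% and the blue ones from 44.0% through 25.9% to 38.8%.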

How the data were processed

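ChIP-seq peak lists of FOXA1 and TLE3 from 12 libraries were used, grouped by the line and factor in the sample titles. The reads were handled with BWA 0.7.5a, MACS2, SAMtools and Trim Galore on hg38, per the submitters' processing notes. The caller's settings and controls were not given in the sources used here. Every deposited list gives chromosome, start, end, name and the authors' score per peak, whose quantity is not named; it was turned into a percentile within its list. Lists were called per library, not on pooled replicates. Of 1134209 peaks, 15 outside chromosomes 1 to 22 and X were left out, and no 2 of the 12 lists shared over 0.00881% identical intervals. No reads or depth were at hand, so Wilson 95% intervals cover counting error over regions only.

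Overlap means at least 1 bp. Genes and promoter windows came from RefSeq tables of GRCh38.p14, the build of the lists; no start positions on chromosome 8 were used. The 14 gene lists hold 247 entries, each with a matching symbol. The members, lists and tests were chosen with earlier results of these data known. Named regions are the 10 highest and 5 lowest members by mean FOXA1 percentile and the 5 regions nearest outside the rule. Named genes are the 10 with most members within 50 kb, those with at least 5 constitutive regions that are all members, the top 3 of each list (only some are printed) and FOXA1, TLE3, ESR1, GATA3, KRT5 and KRT8. Results for some of these genes are left out of the text. Printed promoters are those of the 6 highest ranked members at a coding start.

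Values in libraries left out of the choice were compared by an exact permutation test that flips signs over libraries (two-sided, threshold 0.05); all else is description. The FOXA1 version of this test, the unused library by decile and distance, and the values of motifs and gene lists under each alternative were added after seeing the data. The alternatives were leaving out each library, adding SKBR3 TLE3 replicate 2, the upper 50% of each list, TLE3 lists of 21149 peaks, a 50% overlap, a 1 kb margin, sites of either replicate, all contigs, other start and gene windows, FOXA1 deciles with equal weight and a replicate block. Scripts (Python 3.11.15, numpy 2.4.6, pandas 2.3.3, scipy 1.17.1, matplotlib 3.10.9) were tested on simulated TLE3 lists and gave back the planted members.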

Additional observations from a re-analysis of the deposited data

Results flagged for a closer look

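The library labelled SKBR3 TLE3 replicate 2, which took no part in choosing the regions, overlapped 28.4% of the TLE3-free constitutive FOXA1 regions, 3981 of 14029. This was singled out because the library stands outside the comparisons and a count of 0 would allow a share of up to 0.0214%, for counting error only. Pooled over all FOXA1 ranks, the share is near the 30.2% of all constitutive regions that the same library overlapped. The library overlapped 31.1% of constitutive regions with TLE3 and 15.2% of FOXA1 regions not shared by all lines. By FOXA1 rank the members and the regions with TLE3 differed. In the lowest decile it overlapped 22.98% of members and 44.0% of regions with TLE3, and in the highest 72.5% and 38.8%. The median percentile of its peaks within its own list was 78.9 at members and 40.9 at regions with TLE3. Whether its peaks are TLE3 binding at these regions was not tested.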

How the results depend on the processing

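The numbers below come in a fixed order. First are the members and the difference in FOXA1 rank (points, TLE3-free minus with TLE3). Then comes the fall in TLE3-free share from the lowest to the highest FOXA1 decile (main 66.6 points). The difference in closeness to starts (main -4.37 points) and the percent of members overlapped by SKBR3 TLE3 replicate 2 follow. After these are the median distance to a TLE3 peak and the TLE3-free share near all list genes (main 26.7%). Last is the percent of promoter windows with a forkhead heptamer. Values not given moved by less than their spread. The number of members has no spread and was left out where it stayed within 1.5 times. It was 10048 with SKBR3 TLE3 replicate 2 in the rule and 12382 with a 1 kb margin. Leaving out each library gave 14082 to 17924 members, rank differences of -21.9 to -19.8, a width difference of -370 to -350 bp, a fall of 65.7 to 76.8 points, closeness to starts of -5.00 to 1.51, an overlap of 26.3% to 30.7%, distances of 7.78 to 10.99 kb, list shares of 26.9% to 38.2% and heptamers in 12.5% to 17.5%. Only without T47D TLE3 replicate 2 did closeness to starts turn, to 1.51. With SKBR3 TLE3 replicate 2 in the rule the fall was 52.3, closeness -6.47, distance 4.26 kb, list share 19.5% and heptamers 21.4%. With the upper 50% of each list there were 7591 members, rank -10.3, fall 68.3, closeness 1.07, overlap 24.1%, distance 14.9 kb and list share 31.4%. With TLE3 lists of equal length there were 21625 members, fall 81.0, closeness 2.41, overlap 30.0%, distance 14.8 kb, list share 46.2% and heptamers 12.2%. With a 1 kb margin the fall was 58.7, closeness -5.66, distance 9.99 kb and list share 21.9%. With sites of either FOXA1 replicate there were 29052 members, rank -27.0, fall 78.2, closeness -5.59, overlap 23.03%, distance 8.35 kb and list share 37.6%. Closeness was -3.61 within 3 kb of a start, -3.74 at coding starts, -2.67 within 3 kb of a gene end and -4.98 with FOXA1 deciles of equal weight. The left-out TLE3 difference stood at -54.4 to -47.8 without each library (exact permutation p = 0.125 each, the smallest for 4), at -42.5 ± 21.8 (SD, n = 6; exact permutation p = 0.03125) with SKBR3 TLE3 replicate 2 as a 6th library, whose own difference was -2.71, so that the effect was smaller and only the smallest possible p was lower, and at -50.8 (exact permutation p = 0.5) with the replicate block; the left-out FOXA1 difference stood at -24.5 to -22.2 without each library (exact permutation p = 0.063 each) and at -23.2 (exact permutation p = 0.5) with the replicate block, where 2 numbers allow no smaller p. Nothing in the labels says that a replicate number is shared between lines, and FOXA1 rank correlations over members between lines were 0.246 to 0.415 for the 12 pairs of lists, same-numbered or not. Among counts near single genes, 136 of 1116 moved by over 1.5 times. The causes were not tested; depth is unknown, and the shortest TLE3 lists limit what counts as TLE3-free.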
